A study of Mus musculus with 4 samples.

Results

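The genes described here encode Wnt ligands, the Frizzled receptors they bind, the secreted Frizzled-related proteins (Sfrp), and the co-receptors or alternative receptors Lrp5, Lrp6, Ror1, Ror2 and Ryk. Members were picked by annotated symbol, which gave 37 of the 17097 genes named on the array. These were 19 ligands, 10 Frizzleds, 3 Sfrp genes and 5 co-receptors or alternative receptors. The family itself, and the gene lists used below, were chosen with earlier results of these data known. Each gene was read at 1 probe set, the one with the highest mean over the 4 arrays. Mouse colon adenoma organoids on a C57BL/6 background, that is, 3D cultures of tumour cells, gave the RNA. The arrays labelled Gata6 null/Apc null came from VillinCreERT2 Gata6 fl/fl Apc fl/fl organoids, 1 array from each of the batches A and B. The arrays labelled Apc null came from VillinCreERT2 Gata6 +/+ Apc fl/fl organoids, again 1 array from each batch, so loss of Apc is shared by both groups and no culture with intact Apc was compared. VillinCreERT2 is Cre recombinase that tamoxifen switches on, expressed from the Villin promoter of intestinal epithelium. Culture lasted 7 days, EGF was supplied at 50 ng/ml, a Rock inhibitor was given at 10 µM when passaging, and neither a Wnt ligand nor an R-spondin is among the components that the labels list. The age of the mice, and whether the replicates came from separate mice, are not given in the labels.

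Wnt proteins are lipid-modified secreted signals. They bring a Frizzled and Lrp5 or Lrp6 together at the cell surface, which halts the destruction complex that holds beta-catenin low. Apc is a scaffold of that complex, so in cells that lack Apc beta-catenin accumulates without a ligand. Ror1, Ror2 and Ryk bind Wnt ligands and act mainly outside the beta-catenin route, and Sfrp proteins bind Wnt ligands outside the cell. In the intestine, Wnt3 comes from Paneth cells, Wnt2b and Wnt5a come from the stroma, and Fzd5 and Fzd7 are receptors of crypt epithelium.

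All values are log2 expression per probe set as deposited. A value of 1 log2 unit is a doubling, and levels of different probe sets are not comparable with each other. The filter level was the 40th percentile of all probe sets, 4.45 log2 units. Genes whose mean lay below it are called dim and were not tested, and 11874 genes remained, among them 24 of the 37. Differences are the mean of the arrays labelled Gata6 null/Apc null minus the mean of the Apc null arrays, with limma p-values adjusted over every gene tested and called under 0.05. The fit with the batch letter as a block sets each array against its partner of the same batch. It has 1 residual degree of freedom, and its adjusted p is given beside the unblocked one.

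The 4 arrays had medians of 4.91 to 5.04 log2 units. Gata6 did not separate the groups as labelled. Its brighter probe set read 9.37 and 9.40 on the arrays labelled Gata6 null/Apc null versus 8.89 and 8.61 on the Apc null arrays. Where the probes lie relative to the deleted part is not known here, so the genotype labels remain unchecked by Gata6. Every direction below rests on the labels. Of 10 markers of intestinal epithelium, all were above the filter level, with a summed linear level of 20836.2 to 21738.1 on the arrays labelled Gata6 null/Apc null, against 23473.5 to 24440.8 on the Apc null arrays. In 7 of the 10 both arrays labelled Gata6 null/Apc null read below both Apc null arrays, and in none above; 17.3% of all genes tested read below in this way. Cdx2, an intestinal identity factor, differed by -1.57 (limma adjusted p = 0.228, and 0.00545 with the block), and Epcam by -0.01. Of 5 colon markers analysed, Slc26a3 and Aqp8 were dim. Car1 differed by -1.73 (adjusted p = 0.421, or 0.000381 when blocked), and Hoxb13 by 0.69 (adjusted p = 0.149, or 0.00786 when blocked). Krt20 differed by -0.53, with overlapping groups, and passed in neither fit. The part of these markers in the Wnt gene differences was not tested. Of 10 fibroblast markers, Col1a1, Col1a2, Col3a1, Col6a3, Pdgfra, Lum and Thy1 were dim, and the summed linear level of the list was 603.1 to 936.4 on the arrays labelled Gata6 null/Apc null, compared with 1018.2 to 1071.9 on the Apc null arrays. Most of that sum was Fbln1, which read 8.80 and 9.62 on the arrays labelled Gata6 null/Apc null, against 9.84 and 9.75 on the Apc null arrays. The sum thus follows the probe set of Fbln1 and is no measure of fibroblast content. In bulk RNA, fewer cells of a type and less RNA per cell cannot be told apart.

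Of the 24 genes tested, none passed in the unblocked limma fit, in which 0.648% of all genes passed. That background was 0.522% higher and 0.126% lower. At an unadjusted p under 0.05 there were 8 of 24 (33.3%), against 7.97% of all genes tested. Of the 8, 7 read higher on the arrays labelled Gata6 null/Apc null (background 4.41%) and 1 read lower (background 3.55%). With the batch as a block, 6 of 24 passed (25.0%), against 6.88% of all genes. Of these, 5 were higher (background 3.91%), namely the ligand genes Wnt10a, Wnt6, Wnt16 and Wnt7a and the receptor gene Fzd10, and 1 was lower (background 2.97%), the receptor gene Fzd5. The median difference over the 24 genes was 0.08, against -0.03 over all genes tested. In 9 of the 24 both arrays labelled Gata6 null/Apc null read above both Apc null arrays (background 14.7%), and in 3 both read below (background 17.3%). The groups thus stood apart in 12 of 24, against 32.0% of all genes. An absolute difference of 1 or more was found for 7 of 24, or 29.2%, against 5.10% of all genes. Wnt10a, Fzd10 and Wnt5b entered the test only through the arrays labelled Gata6 null/Apc null, since their Apc null means were under the filter level, so these counts are no support for a difference of the family. Over the 21 genes with both group means at or above that level, a count added after the values were seen, 5 had an unadjusted p under 0.05 (23.8%, against 7.11% of all such genes). With the block 4 of the 21 passed (19.0%, against 6.25%). Wnt16 stayed among the 21 with an Apc null mean of 4.46, hardly above the filter level. These counts too are no support for a difference of the family.

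**Figure D1:**
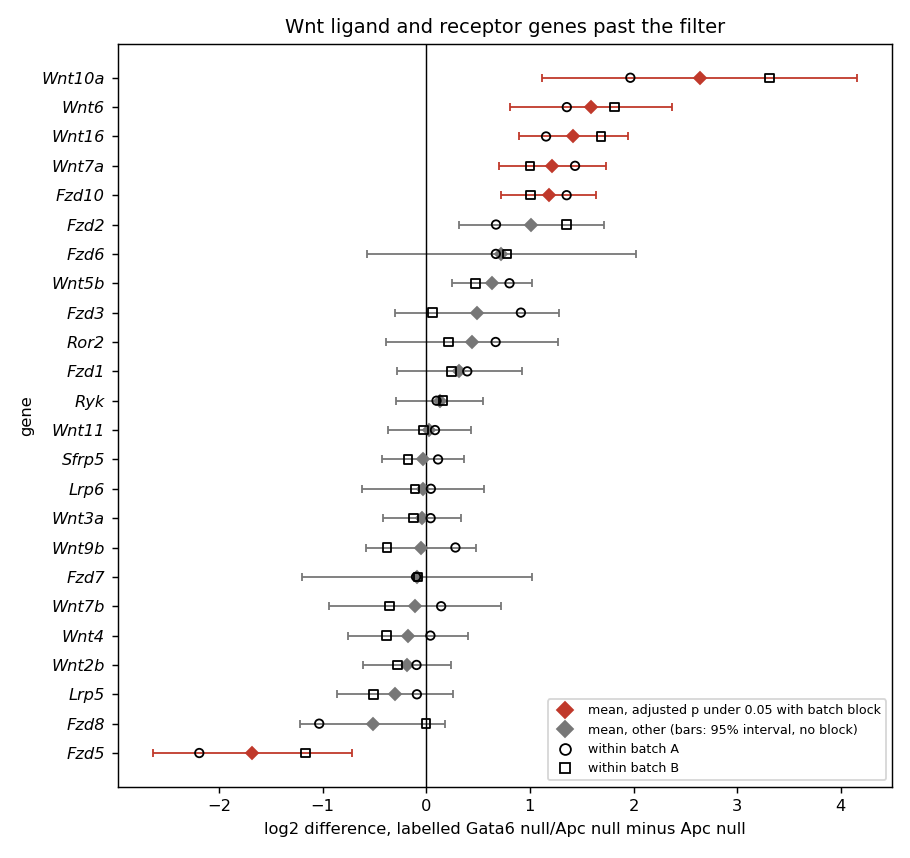
Log2 difference (labelled Gata6 null/Apc null minus Apc null, horizontal axis) of the 24 Wnt ligand and receptor genes past the filter level, one gene per row. Diamonds are means of 2 arrays per group with 95% intervals of the unblocked fit, red where the fit with batch as a block passed an adjusted p of 0.05; open circles and squares are the differences within batch A and within batch B. Wnt10a stands first at 2.64 and Fzd5 last at -1.68. In 17 of the 24 genes the sign is the same in both batches, and the share over all genes was not counted.

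The largest difference in the family was that of the ligand gene Wnt10a. Wnt10a, a ligand known from hair, tooth and skin development, read 6.17 and 7.85 on the arrays labelled Gata6 null/Apc null (batch A, then B, as throughout), against 4.20 and 4.54 on the Apc null arrays. The groups did not overlap, with the array of batch B higher in each. The difference was 2.64 (SE 0.58), with an adjusted p of 0.237 that was 0.00864 with the block. Batch A alone gave 1.97 and batch B alone 3.31. The Apc null mean of 4.37 was under the filter level, near the array floor, so the gene was tested only through its high group and no fold is given. The value depended on single arrays. Without array A labelled Gata6 null/Apc null it was 3.48 (limma adjusted p = 0.0152), and without array B of that label it was 1.80 (limma adjusted p = 0.0604). Without Apc null array A or B the limma adjusted p was 0.523 or 0.377.

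Wnt6 is the direct neighbour of Wnt10a on chromosome 1 among protein-coding genes. It read 7.25 and 7.85 on the arrays labelled Gata6 null/Apc null versus 5.89 and 6.03 on the Apc null arrays. All 4 values were above the filter level and the groups were 1.22 log2 units apart at their nearest. The difference was 1.59 (SE 0.30, 3.00-fold, adjusted p = 0.168, and 0.00939 with the block), with 1.36 from batch A alone and 1.82 from batch B alone. A dim Wnt6 probe set that can match shared sequence read 4.68 and 4.97 on the arrays labelled Gata6 null/Apc null, against 3.74 and 3.68 on the Apc null arrays.

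Of the 4 pairs of neighbouring genes in the family, Wnt6 and Wnt10a were the 1 pair with both genes past the filter level. In the pair Wnt3a and Wnt9a, and in the pair Wnt9b and Wnt3, the brighter genes Wnt3a and Wnt9b differed by -0.04 and -0.05, and their partners were dim. Wnt10b and Wnt1, next to each other on chromosome 15, were both dim.

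Wnt16, a ligand known from bone, read 5.69 and 6.06 on the arrays labelled Gata6 null/Apc null, compared with 4.54 and 4.38 on the Apc null arrays. Its groups were 1.16 log2 units apart. The difference was 1.42 (SE 0.20, 2.68-fold, adjusted p = 0.0934, and 0.0118 with the block), and leaving out array A labelled Gata6 null/Apc null made it 1.60 (limma adjusted p = 0.0381). Leaving out array B of that label made it 1.24 (limma adjusted p = 0.0858), and without Apc null array A or B the limma adjusted p was 0.298 or 0.360. Wnt7a, a limb patterning signal, read 6.04 and 5.72 on the arrays labelled Gata6 null/Apc null, against 4.61 and 4.72 on the Apc null arrays. Its difference was 1.22 (SE 0.20, 2.33-fold, adjusted p = 0.121, and 0.0177 with the block). Both genes lay close to the filter level in the Apc null arrays, with means of 4.46 for Wnt16 and 4.66 for Wnt7a. The other Wnt7a probe set was dim at 3.38 to 3.51 on all 4 arrays and differed by -0.07.

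Wnt5b, a ligand of the beta-catenin independent routes whose mean over the Apc null arrays also lay below the filter, read 5.05 and 4.88 on the arrays labelled Gata6 null/Apc null versus 4.24 and 4.41 on the Apc null arrays. The groups did not overlap, but the difference of 0.64 (SE 0.15) passed in neither fit (adjusted p = 0.270, and 0.0750 with the block). Its other probe set, dim and open to shared sequence, read 4.81 and 4.74 on the arrays labelled Gata6 null/Apc null, compared with 3.44 and 3.56 on the Apc null arrays.

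**Figure D2:**
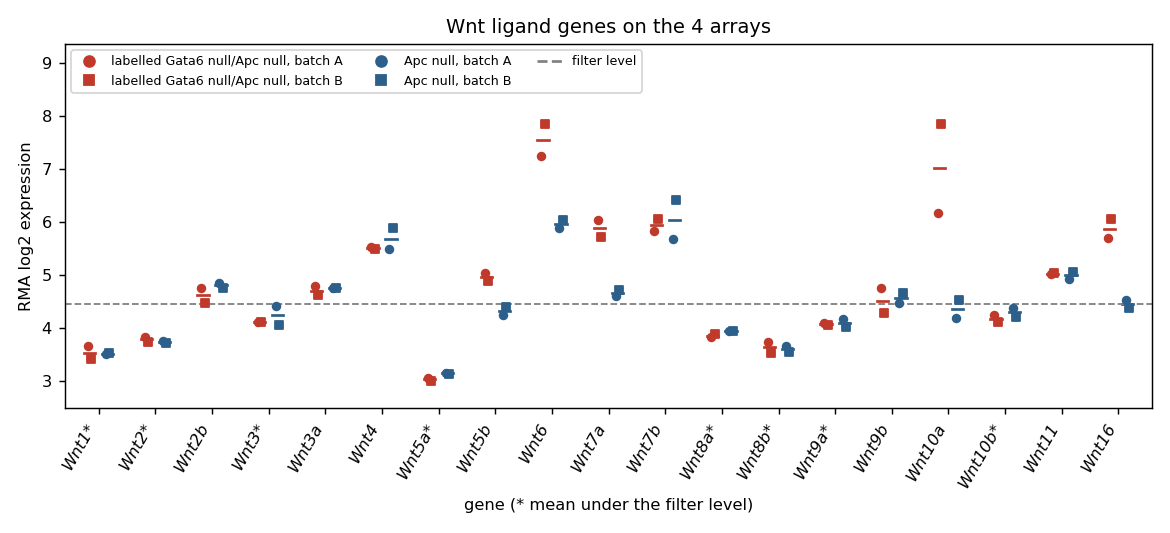
RMA log2 expression (vertical axis) of the 19 Wnt ligand genes on the 4 arrays; circles are batch A, squares batch B, short lines group means of 2 arrays, and the dashed line is the filter level of 4.45. The arrays labelled Gata6 null/Apc null stand above the Apc null arrays for Wnt5b, Wnt6, Wnt7a, Wnt10a and Wnt16, and the groups overlap for the other 6 ligand genes past the filter level.

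The remaining ligand genes past the filter level were Wnt2b, Wnt3a, Wnt4, Wnt7b, Wnt9b and Wnt11, and in each the groups overlapped. Wnt7b, a ligand of epithelia that is close in sequence to Wnt7a, read 5.82 and 6.05 on the arrays labelled Gata6 null/Apc null, against 5.68 and 6.41 on the Apc null arrays. Its difference was -0.11, with a 95% interval of -0.93 to 0.72. Wnt4 read 5.53 and 5.50 on the arrays labelled Gata6 null/Apc null versus 5.49 and 5.88 on the Apc null arrays, with a difference of -0.17 (95% interval -0.75 to 0.41). The stromal ligand gene Wnt2b had 4.76 and 4.49 on the arrays labelled Gata6 null/Apc null, against 4.86 and 4.76 on the Apc null arrays (difference -0.18). Wnt3a, Wnt9b and Wnt11 read 4.29 to 5.07 over the 4 arrays and differed by -0.04, -0.05 and 0.03. With the block the intervals of Wnt3a and Wnt11 were -0.40 to 0.32 and -0.35 to 0.41, so a doubling of the array value lay outside them. Both genes read little above the filter level, where low values are compressed, so a doubling of the transcript is not excluded.

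The other 8 ligand genes, Wnt1, Wnt2, Wnt3, Wnt5a, Wnt8a, Wnt8b, Wnt9a and Wnt10b, were dim. The Paneth cell ligand gene Wnt3 read 4.13 and 4.12 on the arrays labelled Gata6 null/Apc null, compared with 4.42 and 4.07 on the Apc null arrays, at its single probe set, which can match shared sequence. The stromal ligand gene Wnt5a read 3.07 and 3.01 on the arrays labelled Gata6 null/Apc null, against 3.16 and 3.15 on the Apc null arrays. Near the array floor, a low level and no transcript cannot be told apart.

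Of the 8 Frizzled genes tested, 1 was lower and 1 was higher by the blocked test (backgrounds 2.97% and 3.91%). Fzd5, a receptor of crypt epithelium needed for Paneth cell maturation, read 5.79 and 5.92 on the arrays labelled Gata6 null/Apc null versus 7.99 and 7.09 on the Apc null arrays. The groups were 1.17 log2 units apart, and the spread lay in the Apc null arrays. The difference was -1.68 (SE 0.37, 3.20-fold lower, adjusted p = 0.233, and 0.0220 with the block), with -2.19 from batch A alone and -1.17 from batch B alone. A dim Fzd5 probe set read 4.06 and 3.83 on the arrays labelled Gata6 null/Apc null, compared with 4.91 and 4.20 on the Apc null arrays. Averaged over both probe sets, Fzd5 differed by -1.15.

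Beside Fzd5 stand the markers of Paneth and deep crypt secretory cells. Of 4 analysed, Mmp7, Lyz1 and Reg4 were past the filter level and Kit was dim, and in all but Mmp7 both arrays labelled Gata6 null/Apc null read below both Apc null arrays, as 17.3% of all genes tested did. The summed linear level of the list was 886.6 to 1195.8 on the arrays labelled Gata6 null/Apc null, against 1779.4 to 3214.7 on the Apc null arrays. Most of that sum was Reg4 and Mmp7. Reg4 read 8.18 and 7.62 on the arrays labelled Gata6 null/Apc null, against 9.63 and 10.53 (adjusted p = 0.142, and 0.0155 with the block). Mmp7 read 9.11 and 9.90 on the arrays labelled Gata6 null/Apc null, against 9.85 and 10.70 (adjusted p = 0.845, and 0.00688 with the block). Lyz1 passed in neither fit (adjusted p = 0.389, and 0.110 with the block), and Kit was not tested. The part of such cells in the Fzd5 difference was not tested.

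Fzd10 read 5.64 and 5.31 on the arrays labelled Gata6 null/Apc null, against 4.29 and 4.30 on the Apc null arrays. The Apc null arrays differed by little from each other and had a mean of 4.30, under the filter level, so the gene was tested only through its high group and no fold is given. The difference was 1.18 (SE 0.18), with an adjusted p of 0.102, or 0.0130 when blocked, and leaving out array B labelled Gata6 null/Apc null made it 1.35 (limma adjusted p = 0.0484). Leaving out array A of that label made it 1.01 (limma adjusted p = 0.0624), and without Apc null array A or B the limma adjusted p was 0.418 or 0.371. Fzd2 read 6.47 and 6.63 on the arrays labelled Gata6 null/Apc null versus 5.80 and 5.28 on the Apc null arrays. Its difference of 1.01 (SE 0.27, 2.02-fold) passed in neither fit (adjusted p = 0.341, and 0.0595 with the block). Its other probe sets, both past the filter level, differed by 0.61 and 0.48.

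Fzd6 and Fzd7 differed more between batches than between labels. Fzd6, which acts in planar cell polarity, read 7.90 and 6.97 on the arrays labelled Gata6 null/Apc null, compared with 7.22 and 6.19 on the Apc null arrays. Within batches it differed by 0.67 and 0.78, and the adjusted p was 1.00, or 0.0696 with the block. Fzd7, a receptor of intestinal stem cells, ran the other way between batches, at 6.03 and 6.84 on the arrays labelled Gata6 null/Apc null, against 6.13 and 6.92 on the Apc null arrays. Its difference was -0.09, and the block narrowed its 95% interval to -0.53 to 0.36.

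The rest of the Frizzled genes did not pass either fit. Fzd1 read 7.05 and 6.89 on the arrays labelled Gata6 null/Apc null versus 6.66 and 6.64 on the Apc null arrays, a difference of 0.32 (block adjusted p = 0.411). Fzd3, also of the planar polarity route, read 6.08 and 5.30 on the arrays labelled Gata6 null/Apc null, compared with 5.17 and 5.24 on the Apc null arrays. Array A labelled Gata6 null/Apc null stood apart from the rest, and it did so too at another Fzd3 probe set, with 6.09 and 4.47 on the arrays labelled Gata6 null/Apc null against 4.24 and 3.89. Fzd8 read 4.19 and 4.75 on the arrays labelled Gata6 null/Apc null, against 5.22 and 4.75 on the Apc null arrays, so its difference of -0.52 came from batch A. Fzd4 and Fzd9 were dim, with means over the 4 arrays of 4.06 and 4.02.

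**Figure D3:**
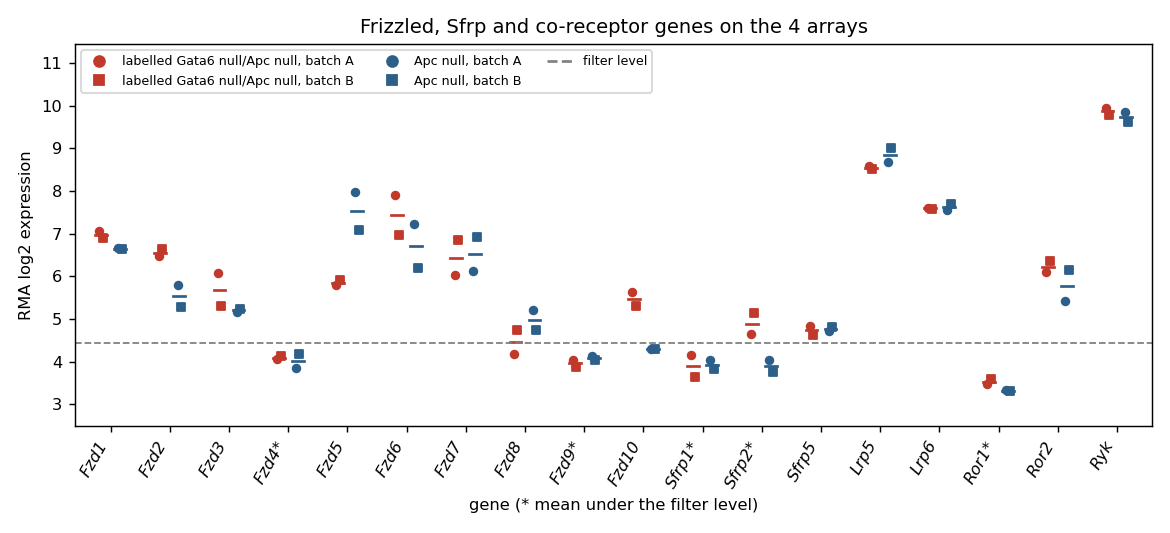
RMA log2 expression (vertical axis) of the 10 Frizzled, 3 Sfrp and 5 co-receptor or alternative receptor genes on the 4 arrays; circles are batch A, squares batch B, short lines group means of 2 arrays, and the dashed line is the filter level of 4.45. The arrays labelled Gata6 null/Apc null lie below the Apc null arrays for Fzd5, Fzd8 and Lrp5 and above them for Fzd1, Fzd2, Fzd3 and Fzd10, and above them also for the dim genes Sfrp2 and Ror1.

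The co-receptors showed no difference that passed a test. Lrp6 read 7.60 and 7.59 on the arrays labelled Gata6 null/Apc null versus 7.56 and 7.70 on the Apc null arrays. Its difference was -0.03, with a 95% interval of -0.62 to 0.55, or -0.42 to 0.36 with the block. Lrp5 read 8.59 and 8.51 on the arrays labelled Gata6 null/Apc null, compared with 8.68 and 9.02 on the Apc null arrays, a difference of -0.30 (95% interval -0.86 to 0.26). Ryk, a Wnt-binding receptor with an inactive kinase domain, read 9.95 and 9.79 on the arrays labelled Gata6 null/Apc null, against 9.85 and 9.63 on the Apc null arrays. Its difference was 0.13, with a 95% interval of -0.29 to 0.55. Ror2, a receptor kinase for Wnt5a, read 6.10 and 6.36 on the arrays labelled Gata6 null/Apc null versus 5.43 and 6.14 on the Apc null arrays, and its interval of -0.38 to 1.27 allows more than a doubling. Ror1 was dim, at 3.47 and 3.59 on the arrays labelled Gata6 null/Apc null, compared with 3.33 and 3.31 on the Apc null arrays.

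Of the Sfrp genes, Sfrp5 was the 1 past the filter level. It read 4.84 and 4.63 on the arrays labelled Gata6 null/Apc null, against 4.73 and 4.81 on the Apc null arrays, a difference of -0.03. Sfrp4 was not analysed here. Sfrp2 had a mean of 4.39, just under that level, and read 4.64 and 5.14 on the arrays labelled Gata6 null/Apc null against 4.03 and 3.75 on the Apc null arrays. Its difference of 1.00 had an adjusted p of 0.256 when dim genes were kept in the test, and of 0.0207 with the block and no filter, where 5.87% of all genes passed. That combined setting was added after the values were seen. Sfrp1 read 3.65 to 4.16 on the 4 arrays. Apart from Sfrp2, the 12 dim genes of the family read 3.01 to 4.42, differed by -0.13 to 0.21, and passed no fit without the filter.

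**Figure D4:**
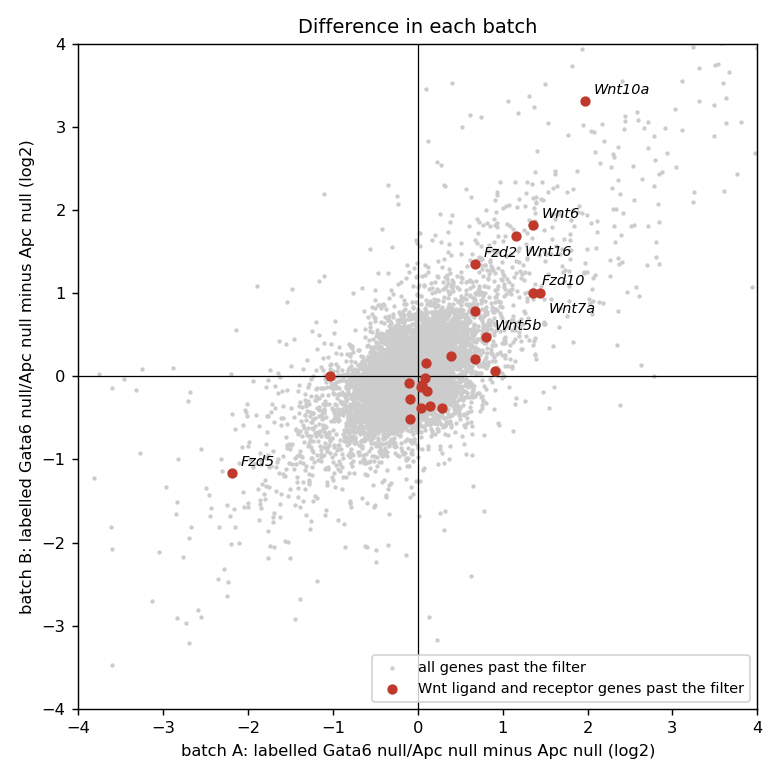
Log2 difference (labelled Gata6 null/Apc null minus Apc null) in batch A on the horizontal axis and in batch B on the vertical axis, for all 11874 genes tested (grey) and the 24 Wnt ligand and receptor genes (red); axes end at 4 log2 units, which leaves out 37 grey genes. Wnt10a, Wnt6, Wnt16, Wnt7a, Fzd10, Fzd2 and Wnt5b lie up in both batches and Fzd5 lies down in both.

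Upstream sequences are shown for the genes that passed with the block and that had an entry, together with Fzd1, whose window held letters of both kinds searched for and which was chosen for that. They are the 250 bases before the transcription start in RefSeq for the GRCm38.p6 build, which matched 26 of the 37 genes and 16 of the 24 tested. Both strands were searched for AGATAA and TGATAA, letters bound by GATA factors, and for CTTTGA, a core of TCF/LEF sites. No matches overlap in the windows shown. Capitals mark matches, on either strand.
Wnt6 (chr1:74771642-74771891, plus strand): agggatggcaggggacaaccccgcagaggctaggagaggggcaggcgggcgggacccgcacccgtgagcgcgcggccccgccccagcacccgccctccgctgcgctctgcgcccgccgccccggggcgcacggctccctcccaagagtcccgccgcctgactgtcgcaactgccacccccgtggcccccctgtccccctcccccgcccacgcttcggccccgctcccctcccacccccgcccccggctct
Wnt16 (chr6:22287977-22288226, plus strand): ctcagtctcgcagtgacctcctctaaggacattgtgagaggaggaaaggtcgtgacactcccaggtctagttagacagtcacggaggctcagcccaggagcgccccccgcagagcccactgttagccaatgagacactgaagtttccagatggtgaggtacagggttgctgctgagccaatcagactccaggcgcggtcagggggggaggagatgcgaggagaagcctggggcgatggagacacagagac
Wnt7a (chr6:91411354-91411603, minus strand): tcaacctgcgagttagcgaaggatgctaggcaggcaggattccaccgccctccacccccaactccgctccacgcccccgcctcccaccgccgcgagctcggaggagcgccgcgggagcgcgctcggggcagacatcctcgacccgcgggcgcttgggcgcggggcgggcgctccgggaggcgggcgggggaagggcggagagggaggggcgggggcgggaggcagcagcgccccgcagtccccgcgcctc
Fzd10 (chr5:128600856-128601105, plus strand): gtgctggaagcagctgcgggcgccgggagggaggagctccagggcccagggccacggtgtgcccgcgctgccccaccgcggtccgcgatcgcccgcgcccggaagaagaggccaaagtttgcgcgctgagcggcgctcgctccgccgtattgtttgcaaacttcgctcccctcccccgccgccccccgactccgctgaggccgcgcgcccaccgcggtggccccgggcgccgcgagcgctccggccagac
Fzd5 (chr1:64737751-64738000, minus strand): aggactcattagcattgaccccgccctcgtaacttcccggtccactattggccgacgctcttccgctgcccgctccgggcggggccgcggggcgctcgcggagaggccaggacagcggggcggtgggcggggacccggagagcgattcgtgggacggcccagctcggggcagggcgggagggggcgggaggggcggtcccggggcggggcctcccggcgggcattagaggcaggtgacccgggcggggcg
Fzd1 (chr5:4758217-4758466, minus strand): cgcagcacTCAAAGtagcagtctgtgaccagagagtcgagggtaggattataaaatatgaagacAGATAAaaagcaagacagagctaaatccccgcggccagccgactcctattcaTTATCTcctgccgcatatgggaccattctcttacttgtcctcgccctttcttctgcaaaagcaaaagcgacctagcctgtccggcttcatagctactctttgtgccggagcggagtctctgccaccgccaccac
None of the letters occurred in the windows of Wnt6, Wnt16, Wnt7a, Fzd10 or Fzd5. The Fzd1 window held AGATAA at 2 places and CTTTGA at 1, with the reverse letters TTATCT and TCAAAG where the match was on the other strand. Over all 32851 windows of this length, AGATAA was found in 9.99%, TGATAA in 7.94%, either of these in 16.6% and CTTTGA in 13.8%. Of the 16 tested genes with an entry, 2 held a GATA match, Fzd1 and Sfrp5, and 3 held CTTTGA, Fzd1, Wnt11 and Wnt5b, the last 2 at 1 of several starts. A window of 250 bases leaves out most regulatory sequence, and a match or its absence is a description of letters. The windows of Wnt6, Wnt7a, Fzd10 and Fzd5 had 76.4% to 79.6% G and C with 28 to 37 CG dinucleotides, against a median of 52.4% and 6 over all windows. That of Wnt16 had 59.2% and 9.

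The other genes of the route were read from groups of processing, inhibition and signalling genes. Porcn, Wls, Dkk3, Dvl1 and Dvl2 were named after their values were seen. The acyltransferase gene Porcn read 5.48 and 6.59 on the arrays labelled Gata6 null/Apc null, against 5.83 and 6.41 on the Apc null arrays. The carrier gene Wls read 9.74 and 9.90 on the arrays labelled Gata6 null/Apc null versus 9.57 and 9.88 on the Apc null arrays. Of the 6 processing genes tested, 1 was higher and none lower in both fits (backgrounds for higher 0.522%, and 3.91% with the block). It was Notum, whose enzyme removes the lipid of Wnt ligands (4.51, limma adjusted p = 0.0126). The cargo receptor genes Tmed5 and Tmed2 differed by -0.66 and 0.12.

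Of 9 secreted inhibitor genes tested, 2 were higher without the block and 4 with it (backgrounds 0.522% and 3.91%), and none was lower. Apcdd1, an inhibitor at the cell surface, passed in both fits at 6.51 (limma adjusted p = 0.0125), and so did Wif1, which binds Wnt ligands, at 9.02 and 9.72 on the arrays labelled Gata6 null/Apc null, against 3.04 and 3.15 on the Apc null arrays (limma adjusted p = 0.0126). Wif1, Dkk2 and Lgr6 had Apc null means under the filter level and were tested only through their high group. Apcdd1 read 10.77 and 11.16 on the arrays labelled Gata6 null/Apc null, against 4.64 and 4.27 on the Apc null arrays. Its Apc null mean of 4.46 was hardly above the filter level. Dkk2 and Dkk3, of the Dickkopf family that includes Lrp5 and Lrp6 blockers, passed only in the blocked fit. Dkk2 read 6.17 and 6.82 on the arrays labelled Gata6 null/Apc null, compared with 3.78 and 4.63 on the Apc null arrays (difference 2.29, adjusted p = 0.131, and 0.00142 with the block). Dkk3 read 6.58 and 8.78 on the arrays labelled Gata6 null/Apc null, against 4.76 and 5.05 on the Apc null arrays (difference 2.78, adjusted p = 0.348, and 0.0184 with the block).

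At the receptors, the group of R-spondins, their receptors and the ligases that remove Frizzleds had 6 genes tested. Without the block 1 was higher (background 0.522%), and with it 2 were higher and 1 lower (backgrounds 3.91% and 2.97%). Lgr6 was higher in both fits, at 6.01 ± 0.10 on the arrays labelled Gata6 null/Apc null versus 4.04 ± 0.06 on the Apc null arrays (SD, n = 2 each), with a limma adjusted p of 0.0253. The ligase gene Znrf3 was higher by 1.62 (adjusted p = 0.219, and 0.00377 with the block). The stem cell gene Lgr5 was lower, at -2.47 (adjusted p = 0.161, and 0.00142 with the block). Of 8 membrane cofactor genes tested none passed without the block and 3 were higher with it (background 3.91%). These were the glypican genes Gpc1 (1.99, adjusted p = 0.0571, and 0.00252 with the block) and Gpc4 (1.01, adjusted p = 0.161, and 0.0128 with the block), and Tspan12, which aids Fzd4 signalling (1.21, adjusted p = 0.366, and 0.0122 with the block).

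Of 9 planar cell polarity genes tested, among them Fzd3 and Fzd6, none passed without the block and 1 with it (backgrounds 0.648% and 6.88%). This was Vangl2, a core polarity gene, at 7.64 and 7.70 on the arrays labelled Gata6 null/Apc null, compared with 5.94 and 6.37 on the Apc null arrays (difference 1.52, adjusted p = 0.142, and 0.00922 with the block). Fzd3 is described above, and Ankrd6 differed by -0.19. Of 9 destruction complex genes none passed in either fit (backgrounds 0.648%, and 6.88% with the block). Axin2, itself a known target of beta-catenin, differed by 0.46, the kinase gene Csnk1a1 by 0.28 and Apc2 by -0.27. Of 7 Dishevelled and regulator genes, 1 passed in each fit (backgrounds 0.648%, and 6.88% with the block). It was Nkd1 in both, at 3.98 (limma adjusted p = 0.0137). Dact2 differed by -0.30, and Dvl1, Dvl2 and Dvl3 by -0.04, 0.05 and 0.12. Over all groups, 5 of 54 genes tested were higher and none lower without the block (backgrounds 0.522% and 0.126%). With it, 12 were higher and 1 lower (backgrounds 3.91% and 2.97%). Wif1 and Lgr6 are in both counts and Dkk2 is in the blocked one, each tested only through its high group. Apcdd1 is in both counts too, with an Apc null mean hardly above the filter level. These counts are therefore no support for a difference of the route.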

How the data were processed

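Gene expression in 4 organoid samples, 2 per genotype, was measured on Affymetrix mouse arrays with 1 biotin label. Values were deposited as log2 expression. Per the submitters' processing notes, the authors used affy and RMA, and the version of each is not given in the sources used here. The method corrects background, equalises the arrays by quantiles and summarises probes, so it removes array-wide shifts and compresses low values. Per the labels' protocols, 25 ng of RNA was amplified. The number of arrays limits the precision.

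Of 45141 probe sets, 104 controls were left out. The platform annotation named 1 gene for 28898, several for 551 and none for 15588. Probe sets with several genes were not used, and the only coordinates given are those of the RefSeq upstream windows (GRCm38.p6), since no build is named for the values. RefSeq also gave the order of protein-coding genes. A choice among probe sets was made for 18 of the 37 genes, and of the 8 not chosen that passed the filter, 7 shared the sign of the chosen one. None of the 8 belonged to a family gene that passed with the block. Of those genes, Wnt10a, Wnt16 and Fzd10 had 1 probe set each. The probe sets not chosen for Wnt6, Wnt7a and Fzd5 were dim. No per-sample column was left unused.

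The genotypes were set against each other in R 4.3.3 with limma 3.58.1 (lmFit and eBayes with a trend, genotype as the term, Benjamini-Hochberg adjustment, two-sided). There were 2 residual degrees of freedom, to which moderation added 2.83, and with the block 1, to which it added 4.99. The labels give the batch letters A and B to 1 array of each genotype, which pairs them. The differences between batches in both genotypes correlated at 0.675 across 11874 genes. P-values measure the spread between these arrays, which may be technical. The fit was tested on simulated data.

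The genes and lists were chosen with earlier results of these data known. Full values are given for family genes past the filter that passed a fit or differed by 1 or more, short values for the others past it, ranges for dim genes, and of each pathway group up to 3 genes by smallest p. Alternatives were the block, the filter, the trend, the choice of probe sets, centring of arrays and leaving out each array.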

Additional observations from a re-analysis of the deposited data

How the results depend on the processing

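The replicate block, with the batch letter as the pairing, gave 817 genes called (464 higher and 353 lower) in place of 77 (62 and 15), 6 family genes in place of 0, and 13 genes of the other pathway groups in place of 5. With the block and no filter, an alternative added after the values were seen, the counts were 1004 (555 higher and 449 lower), 8 and 14; the 2 further family genes were Fzd2 and Sfrp2. Counted over genes with both group means at or above the filter level, also added then, 4 family genes passed with the block. Centring arrays on their medians gave 126 (102 higher and 24 lower). Without probe sets whose names end in x_at, s_at or a_at, 9 genes were lower and 3 pathway group genes passed. Notum and Wif1 had no value there, since each had 1 probe set, ending in a_at. Leaving out 1 array at a time gave 33 to 130 genes, 24 to 118 higher and 9 to 12 lower, and 0 to 2 family genes. These were Wnt10a and Wnt16 without array A labelled Gata6 null/Apc null, and Fzd10 without array B of that label. Wnt10a, Wnt6, Wnt16, Wnt7a, Fzd10, Fzd2, Wnt5b and Fzd5 had 1 direction wherever they had a value. Wnt10a, Wnt16, Wnt7a, Fzd10 and Wnt5b had no value with the filter at the 60th percentile. As the mean of all probe sets, Wnt7a and Wnt5b had none. Without the probe sets ending in x_at, s_at or a_at, Wnt5b had none. Small differences turned: as the mean of all probe sets Fzd7 differed by 0.0157 and Sfrp5 by 0.0431. Leaving out 1 array gave -0.50 to 0.32 for Fzd7, -0.0376 to 0.0969 for Wnt11, -0.12 to 0.0425 for Wnt3a, -0.37 to 0.0253 for Wnt4, -0.47 to 0.26 for Wnt7b, -0.28 to 0.19 for Wnt9b, -0.10 to 0.0397 for Lrp6 and -0.13 to 0.0725 for Sfrp5. With 1 array left in a group, that array was assumed to vary like the others. Signal near the array floor limits what can be said of the 13 dim genes. Apart from these constructions, the cause of the changes was not tested.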
